A study of Rattus norvegicus with 30 samples.

Results

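Genes for the transport and sensing of bile acids were followed in the stomach, jejunum and colon of rats given irinotecan, a chemotherapy drug that damages the gut lining. The set was chosen by name, with earlier results of these data known. It held 6 genes: Slc51a and Slc51b, which encode both chains of the basolateral bile acid exporter OSTα-OSTβ, Slc10a2 (the apical sodium-dependent uptake carrier), Fabp6 (the cytosolic ileal bile acid binding protein), Nr1h4 (the bile acid receptor FXR) and Nr0b2 (the repressor SHP). Each gene was read from its brightest probe set among those annotated with exactly 1 symbol. Of the 6 genes, 5 had such a probe set, out of 14217 genes named on the array in this way, and each of the 5 had 1 probe set only. Slc51b had none, so the values below describe 5 genes. The animals were 30 female DA rats aged 10 weeks. Rats of the 1, 6, 24 and 72 h groups had 1 intraperitoneal dose of irinotecan at 200 mg/kg under light halothane anaesthesia, and the 0 h controls received no irinotecan; the labels do not say whether controls were anaesthetised or injected. Each time had 6 rats, whose RNA was combined into 2 pools of 3 rats, and each pool of whole-wall tissue was hybridised to 1 Affymetrix Rat 230 2.0 array, giving 15 groups of 2 arrays and 30 arrays in all. The 3 tissues came from the same rats.

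Bile acids made in the liver are taken back mainly in the terminal ileum. There Slc10a2 brings them across the brush border, Fabp6 binds them in the cytosol and the Slc51a-Slc51b pair passes them to the blood. FXR is a nuclear receptor switched on by bile acids, and Slc51a, Slc51b, Fabp6 and Nr0b2 are among its known targets, while SHP lacks a DNA-binding domain and represses other nuclear receptors. The ileum was not among the tissues sampled, so the jejunum stands upstream and the colon downstream of the main site of uptake.

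The tissue labels were set against marker lists, each summarised as the median log2 signal of its genes. The enterocyte list lay at 12.62 to 13.25 on the jejunum arrays, the colonocyte list at 12.01 to 12.48 on the colon arrays, and the stomach gland list at 12.95 to 13.65 on the stomach arrays. Some arrays stood apart from the others of their tissue. A pancreatic acinar list reached 13.42 on the 72 h stomach replicate 1, which also had a hepatocyte list at 11.67, 9.27 on the 6 h colon replicate 1 and 12.15 on the 72 h colon replicate 2. The stomach gland list reached 9.41 on the 24 h colon replicate 1. Some of its genes were raised on both 24 h colon arrays. Gkn1 was 10.14 and 9.89 and Gkn2 11.41 and 9.84, beside 7.23 and 5.83, and 7.70 and 6.09, at 0 h. The list median on the 24 h colon replicate 2 was 6.65. On the 72 h colon replicate 1 Gkn2 was 8.51 and Tff1 8.73, with a list median of 7.01. The enterocyte list was raised on the 6 h stomach replicate 2 (8.37), the 72 h stomach replicate 1 (8.44), the 0 h colon replicate 2 (8.51) and the 24 h colon replicate 2 (9.48). A squamous epithelium list, which marks the forestomach, ran from 7.26 to 11.24 over the stomach arrays, and was 7.26 and 9.87 on the control pair. The 3′ to 5′ gap of the GAPDH control probe sets, a measure of RNA integrity, was over 0.5 log2 on the 24 h replicate 1 arrays of stomach (0.56) and jejunum (0.82).

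**Figure D1:**
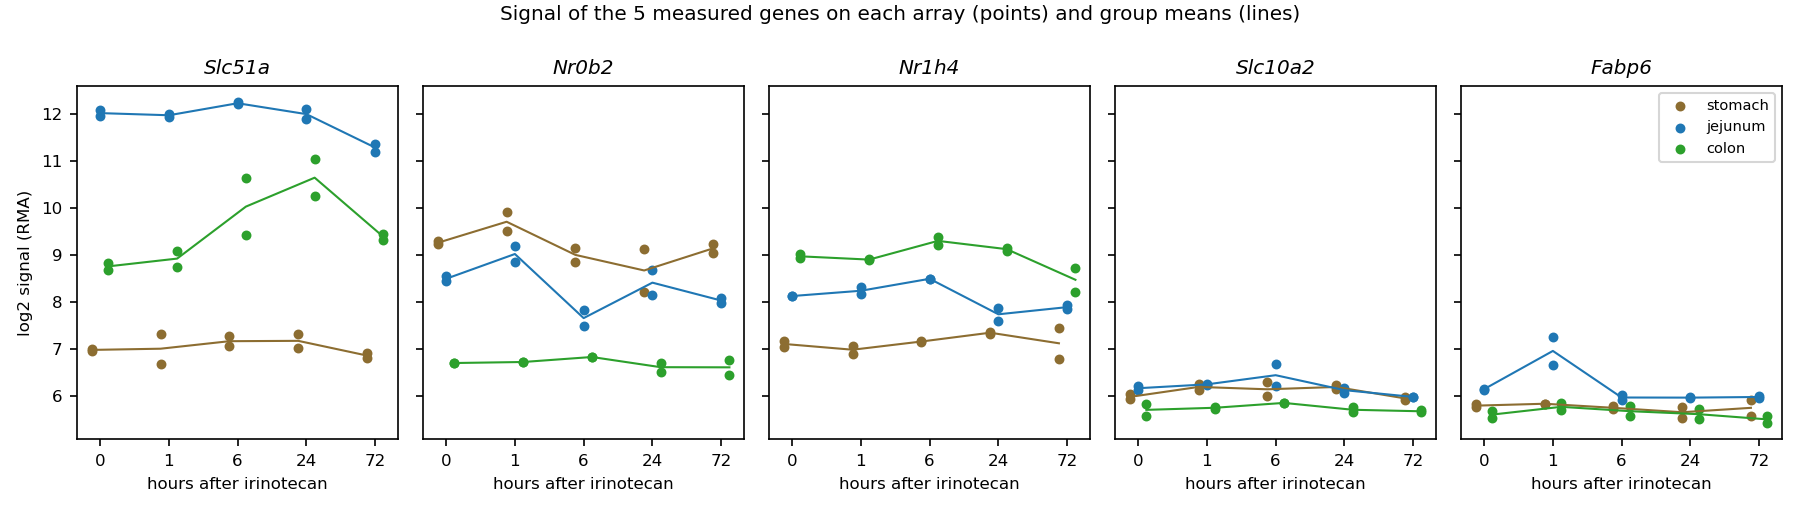
Log2 signal (vertical axis) of the 5 measured genes against hours after irinotecan (horizontal axis, evenly spaced), with 1 point for each array and lines through the group means of 2 arrays. Slc51a on the jejunum arrays sat between 11.21 and 12.26, and on the colon arrays it ran from 8.68 at 0 h to 11.05 at 24 h.

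In control tissue Slc51a, the exporter chain, differed the most between tissues. Its signals at 0 h were 11.97 and 12.09 on the jejunum arrays, 8.68 and 8.84 on the colon arrays, and 7.00 and 6.97 on the stomach arrays. The order was therefore jejunum, colon, stomach, with no overlap between neighbours. The jejunum exceeded the stomach by 5.05 ± 0.28 log2 (SE), or 33.0-fold (adjusted p = 5.49e-11), and the colon by 3.27 ± 0.28, or 9.61-fold (adjusted p = 4.58e-08). The colon exceeded the stomach by 1.78 ± 0.28 (adjusted p = 9.34e-05). These and all adjusted p-values below come from limma with Benjamini-Hochberg adjustment over 31042 probe sets, and a difference was called where the adjusted p was under 0.05. In whole tissue, fewer cells of a type and less RNA per cell cannot be told apart.

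The receptor and its target had different orders across the tissues. Nr1h4 signals at 0 h were 8.94 and 9.02 in colon, 8.13 and 8.13 in jejunum, and 7.16 and 7.05 in stomach. Colon lay 1.87 ± 0.16 log2 above stomach (adjusted p = 5.55e-08), jejunum lay 1.02 ± 0.16 above stomach (adjusted p = 6.46e-05), and jejunum lay 0.85 below colon (log2 difference -0.85 ± 0.16, adjusted p = 0.000449). Nr0b2 signals were 9.30 and 9.23 in stomach, 8.55 and 8.45 in jejunum, and 6.71 and 6.70 in colon. This order was the reverse of that of Nr1h4: the colon was 5.91-fold below the stomach (log2 difference -2.56 ± 0.22, adjusted p = 6.01e-08) and the jejunum was 1.80 ± 0.22 above the colon (adjusted p = 5.1e-06) but below the stomach (-0.77 ± 0.22, adjusted p = 0.0127). The jejunum-stomach call for Nr0b2 was lost without the stomach replicate 1 (adjusted p = 0.0712) or the jejunum replicate 2 (adjusted p = 0.0806).

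Differences in the uptake carrier and the binding protein were small. Slc10a2 signals at 0 h were 6.12 and 6.21 in jejunum, 6.03 and 5.93 in stomach, and 5.83 and 5.58 in colon, and Fabp6 signals were 6.16 and 6.14, 5.82 and 5.77, and 5.53 and 5.67 in the same order. Both genes were higher in jejunum than in colon, Slc10a2 by 0.46 ± 0.12 log2 (adjusted p = 0.00521) and Fabp6 by 0.54 ± 0.15 (adjusted p = 0.00585). The Slc10a2 call was lost without the colon replicate 2 (0.33, adjusted p = 0.0813) and the Fabp6 call without the colon replicate 1 (0.47, adjusted p = 0.0565). Neither difference from the stomach was called. For jejunum over stomach the adjusted p was 0.269 for Slc10a2 and 0.0731 for Fabp6, and for colon against stomach 0.0885 and 0.332. When the deposited values were quantile normalised the jejunum and colon differences were 0.29 (adjusted p = 0.0663) and 0.37 (adjusted p = 0.0601), no longer called. The file holds no detection calls, so it does not say whether these low signals lie above background.

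In all, 3 of the 5 measured genes were called between jejunum and stomach, where 32.2% of all probe sets were called. Between jejunum and colon all 5 were called, against 45.7% of probe sets, and between colon and stomach 3 were called, against 33.1%. Pools of the same rats were treated as independent in these comparisons.

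In the colon, Slc51a was the member that rose after irinotecan. Its signals were 8.68 and 8.84 at 0 h, 9.10 and 8.76 at 1 h, 10.65 and 9.42 at 6 h, 10.26 and 11.05 at 24 h, and 9.33 and 9.45 at 72 h. All arrays of 6, 24 and 72 h were above both 0 h arrays, and the 1 h arrays overlapped them. The rise at 24 h was 1.89 ± 0.34 log2 (95% interval 1.13 to 2.65), or 3.71-fold, with an adjusted p of 0.0318. The differences of 1.27 ± 0.34 at 6 h (adjusted p = 0.133) and 0.63 ± 0.34 at 72 h (adjusted p = 0.392) were not called. The 6 h value rested on 1 array: it was 0.66 (adjusted p = 0.731) without replicate 1, the array with acinar signal, and 1.89 (adjusted p = 0.0199) without replicate 2. It was the 1 member called of 5 at 24 h, where 1.14% of all probe sets were called. No member was called at 1 h, where 0% of probe sets were called although 4624 had an unadjusted limma p under 0.05, none of them a member. No member was called at 6 h (1.19% of probe sets) or 72 h (1.32%), with 1 member at an unadjusted p under 0.05 at each.

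Genes of the marker lists also moved on the same colon arrays. Whether their signal came from colon cells or from other cells was not tested. Fabp1, a fatty acid binding protein of the enterocyte list, had signals of 7.16 and 8.87 at 0 h, 7.56 and 7.20 at 1 h, 9.63 and 8.14 at 6 h, 10.19 and 11.74 at 24 h, and 7.12 and 7.35 at 72 h. Its 24 h difference of 2.95 ± 0.62 was not called (adjusted p = 0.0542), but its 72 h level was below its 24 h level (-3.73 ± 0.62, adjusted p = 0.0109). Apoa4 and Mttp, which serve lipid export from enterocytes, were high on replicate 2 of 0 h (8.71 and 8.16) and of 24 h (10.31 and 8.18) only, and lay at no more than 7.23 and 6.04 on the other 8 colon arrays. Fabp2 was 9.93 and 10.15 at 0 h, 11.67 and 10.28 at 6 h, and 11.29 and 12.06 at 24 h. Alpi was 7.52 and 8.01 at 0 h and 8.31 and 8.66 at 24 h. Anpep, of the same list, was 7.08 and 8.30 at 0 h and 6.92 and 8.50 at 24 h. The median of 10 measured enterocyte markers ran from 7.12 to 8.51 at 0 h and from 7.71 to 9.48 at 24 h, and 0 of the 10 were called at 24 h. Of other lists, 2 of 9 stomach gland markers (median 1.42) and 2 of 8 smooth muscle markers (median 0.29) were called higher at 24 h. Leaving out the arrays of raised enterocyte signal was an alternative chosen after the marker values were seen. It left 1 array at 0 h and 1 at 24 h, both replicate 1, with a Slc51a difference of 1.57. That 24 h array had the stomach gland list at 9.41 and Fabp1 at 10.19. The Slc51a difference at 24 h was 2.29 without the arrays of raised acinar or Pgc (pepsinogen) signal. Only replicate 2 was then left at 24 h, with the enterocyte list at 9.48 and the stomach gene Gkn1 at 9.89. Leaving out each of the 4 arrays in turn gave 1.49 to 2.29, and the call held only without the 24 h replicate 1 (adjusted p = 0.0348). It was lost without the 24 h replicate 2 (1.49, adjusted p = 0.0833), the 0 h replicate 1 (1.81, adjusted p = 0.154) or the 0 h replicate 2 (1.97, adjusted p = 0.26). The part of the stomach gland and smooth muscle markers in the Slc51a difference was not tested beyond these fits.

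**Figure D2:**
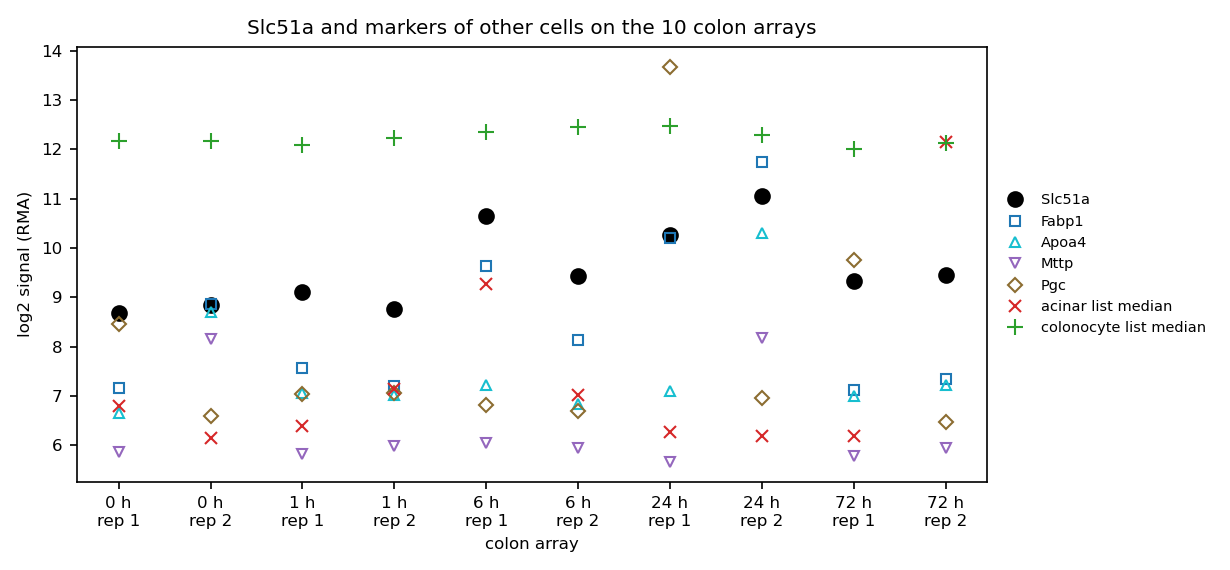
Log2 signal (vertical axis) on each of the 10 colon arrays (horizontal axis) of Slc51a, the genes Fabp1, Apoa4 and Mttp of the enterocyte list, the stomach gene Pgc, and the medians of the acinar and colonocyte lists. Slc51a was 10.26 and 11.05 on the 24 h arrays. Fabp1 was raised on both of these (10.19 and 11.74), while Apoa4 was raised on the second only (10.31).

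In the jejunum Slc51a fell late. Its signals were 11.97 and 12.09 at 0 h, 11.95 and 12.01 at 1 h, 12.26 and 12.21 at 6 h, 11.90 and 12.12 at 24 h, and 11.38 and 11.21 at 72 h. The 72 h arrays were the lowest of the 10, below every other jejunum array. The difference from 0 h was -0.73 ± 0.10 log2 (95% interval -0.96 to -0.51; adjusted p = 0.00228), a 1.66-fold decrease, and that from 24 h was -0.71 ± 0.10 (adjusted p = 0.00351). Leaving out each of the 4 arrays in turn gave -0.82 to -0.65, called each time. A fit over all 30 arrays, where tissues share 1 estimate of the spread, gave an adjusted p of 0.0749. Slc51a was the 1 member called at 72 h, where 23.9% of all probe sets were called, and the 1 called between 72 and 24 h, where 12.9% were.

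Cell type markers shifted on the same 72 h jejunum arrays. Of 10 measured enterocyte markers 2 were called lower and none higher, with a median difference of -0.22, and their median signal was 12.95 and 12.95 at 0 h and 12.86 and 12.62 at 72 h. Of 6 colonocyte markers 3 were called lower (median -0.48), and of 6 general epithelial markers 1 was called higher (median 0.05). Of 10 macrophage markers 4 were called higher and 1 lower (median 1.13), and of 8 smooth muscle markers 3 were called higher (median 0.75). Lists of other organs had genes called lower too, and none higher. These were 3 of 10 hepatocyte markers (median -0.19), 2 of 13 acinar markers (-0.22), 2 of 7 squamous markers (-0.17) and 1 of 9 stomach gland markers (-0.16). Over all probe sets 23.9% were called, so the enterocyte count does not show a loss of enterocytes. The part of these marker shifts in the Slc51a decrease was not tested.

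In the stomach Slc51a signals stayed between 6.68 and 7.33 on all 10 arrays, and the 1 h pair (7.33 and 6.68) spanned that whole range. No stomach difference from 0 h exceeded 0.20 log2 in size, and the interval at 24 h was -0.27 to 0.65.

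The target gene Nr0b2 fell in the jejunum at 6 h. Its jejunum signals were 8.55 and 8.45 at 0 h, 8.87 and 9.19 at 1 h, 7.83 and 7.49 at 6 h, 8.15 and 8.68 at 24 h, and 7.98 and 8.09 at 72 h. Both 6 h arrays were below, and both 1 h arrays above, all 0 h values. At 6 h the difference was -0.84 ± 0.18 log2 (95% interval -1.25 to -0.43; adjusted p = 0.0423), a 1.79-fold decrease. The differences of 0.53 ± 0.18 at 1 h (adjusted p = 0.928) and -0.46 ± 0.18 at 72 h (adjusted p = 0.0925) were not called.

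Nr0b2 was the 1 member called at 6 h in jejunum, where 3.49% of all probe sets were called. The call was lost when any of the 4 arrays was left out, with differences of -1.01 to -0.67 and adjusted p-values of 0.154 to 0.255, and in the fit over all 30 arrays (adjusted p = 0.0529). The enterocyte marker median was 12.95 and 12.95 at 0 h and 13.13 and 13.06 at 6 h, with none of its 10 genes called. Of other lists, 1 of 6 colonocyte markers was called higher (median 0.12) and 1 of 13 acinar markers lower (median -0.16). The macrophage list had a median of -0.23, with none of its 10 genes called. The part of cell makeup in the Nr0b2 decrease was not tested.

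In stomach, where Nr0b2 signal was highest, the arrays gave 9.30 and 9.23 at 0 h, 9.92 and 9.51 at 1 h, 9.15 and 8.86 at 6 h, 8.22 and 9.13 at 24 h, and 9.24 and 9.05 at 72 h. The 1 h arrays lay above and the 6 and 24 h arrays below the control pair, but no difference was called. The largest was -0.59 ± 0.28 at 24 h (adjusted p = 0.601), and the lower 24 h array, replicate 1, was the one with the GAPDH gap. In colon all 10 Nr0b2 signals lay between 6.45 and 6.84.

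**Figure D3:**
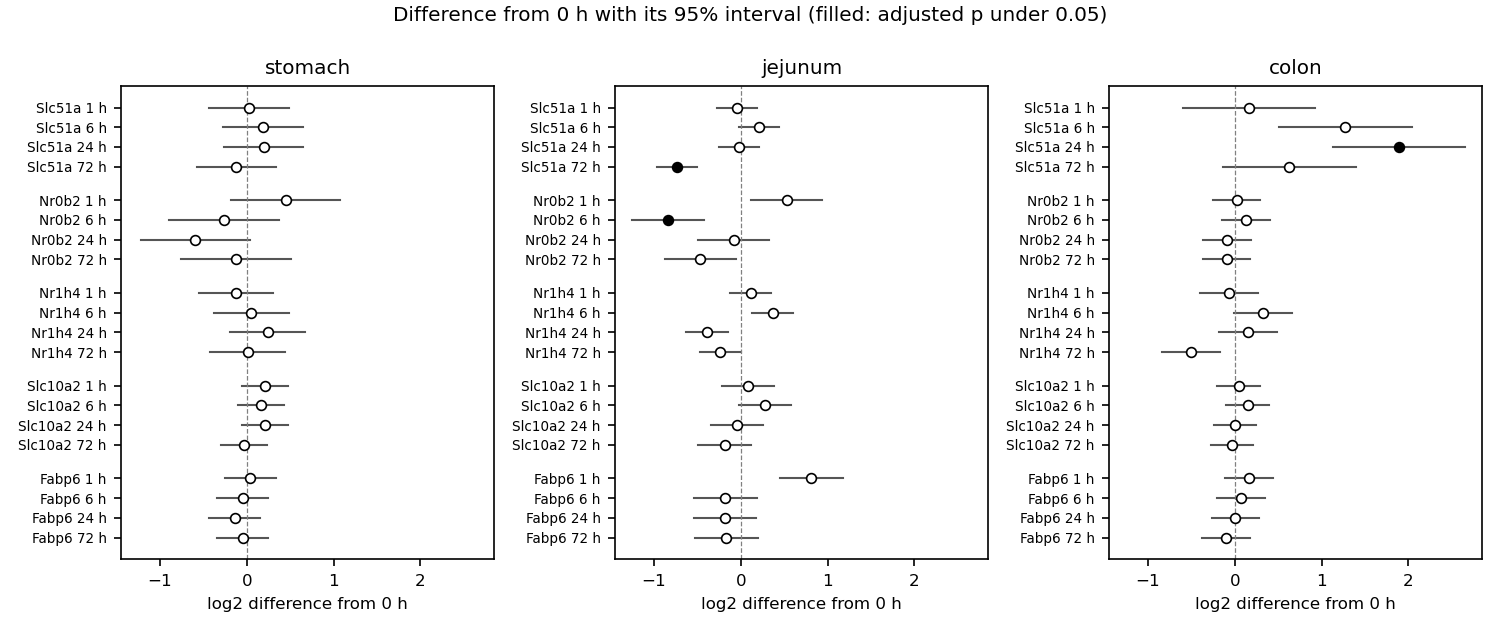
Log2 difference from 0 h (horizontal axis) with its 95% interval for each measured gene and time, in 3 panels for stomach, jejunum and colon; filled points had a limma adjusted p under 0.05. The filled points are Slc51a in jejunum at 72 h (-0.73) and in colon at 24 h (1.89), and Nr0b2 in jejunum at 6 h (-0.84).

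The receptor gene Nr1h4 differed between the later times in colon. Its colon signals were 8.94 and 9.02 at 0 h, 8.92 and 8.89 at 1 h, 9.40 and 9.21 at 6 h, 9.10 and 9.16 at 24 h, and 8.23 and 8.73 at 72 h. The 72 h arrays were the lowest of the 10. From 24 to 72 h Nr1h4 fell by 0.65 log2 (-0.65 ± 0.15, adjusted p = 0.032), while the difference of 72 h from 0 h was -0.50 ± 0.15 (adjusted p = 0.127). It was the 1 member called between 72 and 24 h in colon, where 6.73% of all probe sets were called. Slc51a differed by -1.26 ± 0.34 there (adjusted p = 0.0549). In the same comparison 4 of 8 smooth muscle markers (median -0.42), 3 of 10 enterocyte markers (-0.83), 2 of 9 stomach gland markers (-1.46) and 1 of 6 colonocyte markers (-0.26) were called lower, and 1 of 10 macrophage markers (0.90) was called higher. Their part in the Nr1h4 difference was not tested.

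The Nr1h4 call was lost in 3 of 4 fits that left out an array: without the 24 h replicate 1 (-0.69, adjusted p = 0.118), the 24 h replicate 2 (-0.62, adjusted p = 0.0651) or the 72 h replicate 1 (-0.40, adjusted p = 0.139). Without the 72 h replicate 2, the array with acinar signal, the difference from 24 h was -0.90 (adjusted p = 0.00639) and that from 0 h was -0.75 (adjusted p = 0.0233). Without the 72 h replicate 1 the difference from 0 h was -0.25 (adjusted p = 0.539).

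Nr1h4 in jejunum was 8.13 and 8.13 at 0 h, 8.32 and 8.17 at 1 h, 8.50 and 8.49 at 6 h, 7.60 and 7.89 at 24 h, and 7.86 and 7.93 at 72 h. The 6 h pair lay above and the 24 and 72 h pairs below the controls, without overlap. None of these differences was called: 0.37 ± 0.10 at 6 h (adjusted p = 0.0949), -0.39 ± 0.10 at 24 h (adjusted p = 0.14) and -0.24 ± 0.10 at 72 h (adjusted p = 0.125). The lower 24 h array, replicate 1, had the GAPDH gap of 0.82. Without it the 24 h difference was -0.24 (adjusted p = 0.231), and without replicate 2 it was -0.53 (adjusted p = 0.00545). At 24 h no member was called in jejunum (0.409% of all probe sets were), and Nr1h4 was the 1 member with an unadjusted limma p under 0.05. In stomach Nr1h4 ran from 6.79 to 7.45, both on 72 h arrays.

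Fabp6 in jejunum was higher on both 1 h arrays (6.66 and 7.26) than on the 0 h arrays (6.16 and 6.14). It was 6.02 and 5.92 at 6 h, 5.98 and 5.95 at 24 h, and 6.00 and 5.96 at 72 h. The 1 h difference was 0.81 ± 0.16 log2 (95% interval 0.45 to 1.17), with an unadjusted limma p of 0.000616 and an adjusted p of 0.324, so it was not called. Without the lower 1 h array, replicate 1, it was 1.12 (adjusted p = 0.013), and without the higher, replicate 2, it was 0.51 (adjusted p = 0.74). At 1 h in jejunum 0.0354% of all probe sets were called and no member; Fabp6 and Nr0b2 were the 2 members at an unadjusted p under 0.05.

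Slc10a2 was not called at any time in any tissue. Its jejunum signals were 6.12 and 6.21 at 0 h, 6.23 and 6.26 at 1 h, 6.68 and 6.21 at 6 h, 6.18 and 6.07 at 24 h, and 5.98 and 5.98 at 72 h. The largest difference from 0 h was 0.28 ± 0.13 in jejunum at 6 h (95% interval -0.02 to 0.58; adjusted p = 0.287), where replicate 1 alone stood above the controls. Its stomach signals ran from 5.92 to 6.29 and its colon signals from 5.58 to 5.86.

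The stomach gave no called member at any time, and no member reached an unadjusted limma p under 0.05 there. Few probe sets were called in this tissue at all: 0.0161% at 1 h, 0.0322% at 6 h, 0.0161% at 24 h and 0.00644% at 72 h against 0 h, and 0.00322% between 72 and 24 h. The median difference of the 5 genes was 0.04 at 1 h, 0.05 at 6 h, 0.19 at 24 h and -0.05 at 72 h, beside medians over all probe sets of 0.00, 0.01, 0.02 and -0.04.

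Whether the responses differed between tissues was tested with an F test of the interaction of tissue and time over all 30 arrays. No member passed at 1 h (0.00322% of all probe sets did), 6 h (0.251%), 24 h (0.229%) or 72 h (2.28%), with 1, 2, 2 and 1 members at an unadjusted limma p under 0.05. The lowest adjusted p was 0.0632, for Slc51a at 24 h. Its jejunum response at 24 h was below its colon response by 1.91 log2 (-1.91 ± 0.40, 95% interval -2.75 to -1.07), and its colon response exceeded that of the stomach by 1.70 ± 0.40. At 72 h the jejunum response was -1.36 ± 0.40 relative to colon (adjusted p of the F test 0.132). For Nr0b2 at 6 h the jejunum response was -0.97 ± 0.32 relative to colon and -0.58 ± 0.32 relative to stomach (adjusted p of the F test 0.284). Colon Nr0b2 signals, at 6.45 to 6.84, lay below the array medians of 6.97 to 7.06, and whether a decrease could show at that level was not tested. The calls in a single tissue above are thus not shown to be particular to that tissue.

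The upstream sequences of Slc51a and Nr0b2 are shown because these are the measured genes called against 0 h. They are the 250 bases before the start site from RefSeq (GRCr8), on the plus strand at chr11:81803891-81804140 and chr5:151062910-151063159, and capitals mark a close match to a searched motif.
Slc51a: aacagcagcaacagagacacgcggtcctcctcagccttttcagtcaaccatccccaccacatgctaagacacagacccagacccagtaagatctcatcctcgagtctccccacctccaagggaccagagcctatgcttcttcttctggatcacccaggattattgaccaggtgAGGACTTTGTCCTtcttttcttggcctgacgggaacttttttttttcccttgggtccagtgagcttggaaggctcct
Nr0b2: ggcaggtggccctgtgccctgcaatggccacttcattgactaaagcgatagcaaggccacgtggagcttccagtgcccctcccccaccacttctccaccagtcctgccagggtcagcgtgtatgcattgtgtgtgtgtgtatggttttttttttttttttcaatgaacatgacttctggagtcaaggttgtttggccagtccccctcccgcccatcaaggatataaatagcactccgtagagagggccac
The table held 5 of the 6 genes; Nr1h4 was the one without an entry. On both strands 3 motifs were searched, all chosen after the letters had been read: AGGTCANTGACCT (an inverted repeat of the nuclear receptor hexamer, the form FXR with its partner RXR is known to bind), GTTAATNATTAAC (the form known for HNF1) and TCAAGGTCA (the hexamer with an extension, the form known for the product of Nr5a2). A match was marked at no more than 3 mismatches in a 13-letter motif or 1 in the 9-letter motif. The marked Slc51a stretch, AGGACTTTGTCCT at -77 to -65, differs from the inverted repeat at 3 letters, and 10.3% of 33469 upstream regions of that length hold one as close. In Fabp6, AGGTGAATAACCT at -155 to -143 has 2 mismatches, as close as in 1.24% of regions, and in Slc51b GGGTCATTCACCC at -116 to -104 has 3. For the HNF1 motif, ATTAAACATTAAC in Slc10a2 and GATAATAATTAAG in Slc51b each have 2 mismatches (1.09% of regions). The extended hexamer had no match within its limit in any of the 5 genes, and Nr0b2 had none for any of the 3 motifs. These are matches of letters in this window and no measurement of binding.

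The wider bile acid pathway was read from 7 lists with 61 genes, of which 56 were measured. In the jejunum at 72 h 6 were called higher and 7 lower, with a median difference of -0.08 beside -0.07 over all probe sets. These 13 of 56 are about the share called over all probe sets in this comparison (23.9%), so the counts, in the lists below too, are a description of single genes and no result about the pathway. Of the synthesis enzymes 3 of 11 measured fell: Amacr, which racemises side-chain intermediates, by 0.99 log2 (-0.99 ± 0.17, adjusted p = 0.00565), Cyp27a1, a mitochondrial sterol side-chain hydroxylase, by 0.73 (-0.73 ± 0.16, adjusted p = 0.0141), and Cyp8b1, a sterol hydroxylase needed for cholic acid, by 0.36 (-0.36 ± 0.08, adjusted p = 0.0183). Of 9 measured receptors and partners 2 fell, the oxysterol receptor Nr1h3 (-0.45) and the xenobiotic receptor Nr1i2 (-0.39). Of 14 other carriers the efflux pump Abcc4 (0.67) and Slc10a7 (0.57) rose, and Slco2b1, an organic anion uptake carrier, fell (-0.30). Among 11 regulators Jun (0.62) and Cdx1 (0.57) rose and Gata4 (-0.36) fell. Of the relatives of Fabp6, Fabp5 (1.81) and Fabp4 (1.44) rose, while Fabp1 (-0.23, adjusted p = 0.195) and Fabp2 (-0.18, adjusted p = 0.115) were not called. Fabp4 and Fabp5 are known from adipocytes, macrophages and skin. On the same arrays 4 of 10 macrophage markers were called higher and 1 lower, and their part in these 2 rises was not tested.

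At 6 h in jejunum, when Nr0b2 fell, Cyp27a1 (0.85 ± 0.16, adjusted p = 0.026) and Gata5 (0.84 ± 0.16, adjusted p = 0.03) rose and Slco2b1 fell (-0.53 ± 0.08, adjusted p = 0.0122), 3 of 56 in all, where 3.49% of all probe sets were called. Cyp27a1 was thus called higher at 6 h and lower at 72 h. In colon at 24 h, when Slc51a rose, none of the 56 was called (1.14% of all probe sets were), and at 72 h (1.32%) 1 was, as Cdx2, a regulator of intestinal identity, fell (-0.74 ± 0.12, adjusted p = 0.0211). The gene for FGF15, the FXR-driven hormone of the ileum, which the current gene table lists as Fgf19, was not called in jejunum at 6 h (0.05, adjusted p = 0.853) or 72 h (0.26, adjusted p = 0.116). None of the 56 was called in the stomach.

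**Figure D4:**
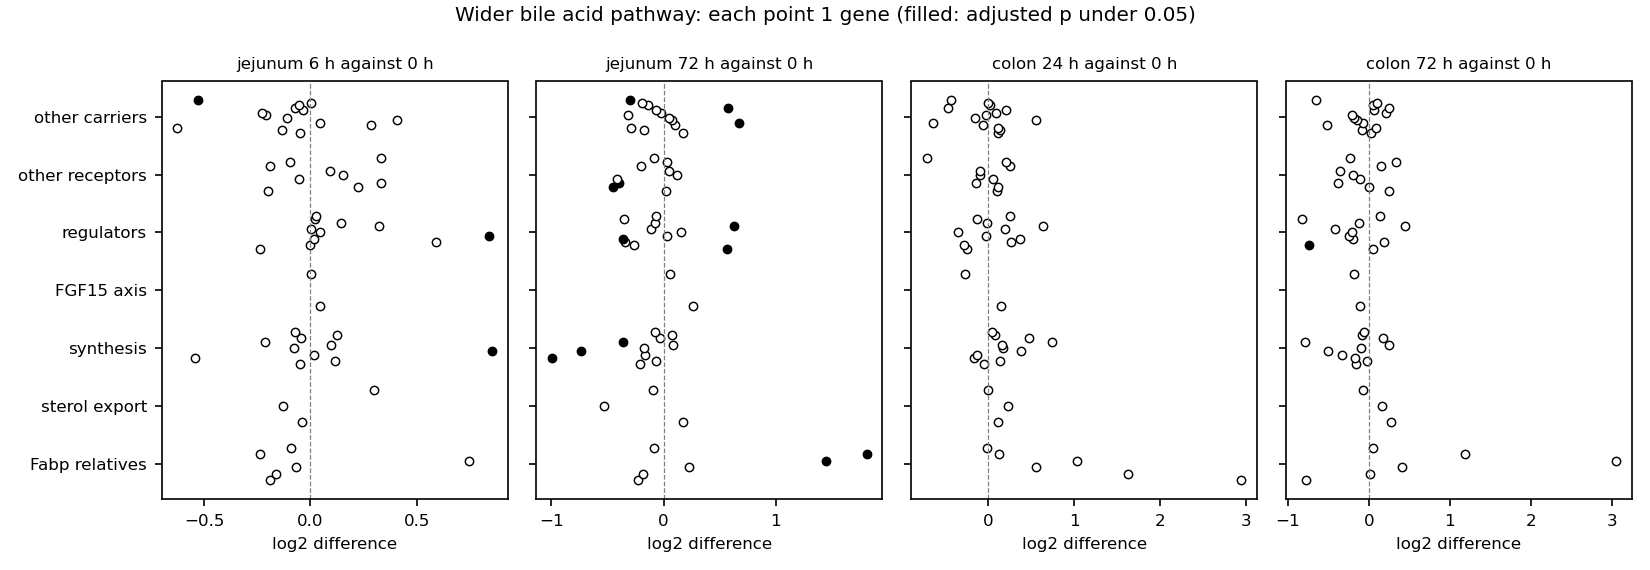
Log2 difference from 0 h (horizontal axis, scaled separately in each panel) of the 56 measured pathway genes, 1 point a gene, arranged by list; filled points had a limma adjusted p under 0.05. The panel for jejunum at 72 h holds 13 filled points, 6 above and 7 below 0.

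At 0 h, 23 of the 56 pathway genes were higher and 5 lower in jejunum than in stomach, where 32.2% of all probe sets were called. Against colon 16 were higher and 10 lower, 26 of 56 and so about the 45.7% of all probe sets called. Another exporter, Abcc3, had an order unlike that of Slc51a: it was 1.82 ± 0.15 log2 lower in jejunum than in colon (log2 difference -1.82, adjusted p = 3.31e-08). Abcc2, an apical pump, was higher in jejunum than in colon by 2.96 (adjusted p = 1.41e-08). Nr5a2, a receptor whose activity SHP represses, was higher in colon than in jejunum (log2 difference of jejunum from colon -1.01, adjusted p = 0.000173), as was Nr1h4.

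The genes whose signal followed each member most closely were sought over the 10 arrays of the tissue with the member's highest mean, by Pearson correlation among 9658 genes for Slc51a. For Slc51a in jejunum these were Ybx2 (r = 0.97), the cation carrier Slc22a4 (0.97) and Dgat1, a triglyceride-forming enzyme (0.97). Slc22a4 went from a mean of 8.04 at 0 h to 7.08 at 72 h and Dgat1 from 12.37 to 11.95. For Fabp6 in jejunum they were Chac1 (0.96), Ddit3 (0.95) and Fcmr (0.95), with means at 0 and 1 h of 7.74 and 8.24 for Chac1, and of 8.17 and 8.88 for Ddit3; both are known from the amino acid and endoplasmic reticulum stress responses. For Nr1h4 in colon they were Btnl3, Pip5k1a and Mier3 (0.94 to 0.95), for Nr0b2 in stomach Pstk, Prdx3 and Tm2d1 (0.93 to 0.95), and for Slc10a2 in jejunum Pcf11, Parp4 and Capn10 (0.89 to 0.90). Each was picked as the highest of many correlations, over 10 arrays that share time points and tissue makeup, and serve as description only.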

How the data were processed

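Log2 signals of 31099 probe sets on 30 arrays were used as deposited; the submitters' processing notes name RMA without a version or settings. RMA normalises arrays together, so a change in total RNA does not show. After 57 array controls were removed, 31042 probe sets were tested with no filter on low signal (20826 had 1 symbol, 436 several, 9780 none). Array medians were 6.97 to 7.06 and replicates correlated at 0.947 to 0.996. With 2 pools a group, the number of arrays limits precision.

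With limma 3.58.1 in R 4.3.3, each tissue's 10 arrays were fitted together for differences from 0 h and of 72 from 24 h. All 30 arrays were fitted for tissue differences at 0 h and for the interaction F tests. The fits were tested on simulated data. The 6 genes, the pathway and marker lists and the tests were chosen with earlier results of these data known. Pathway genes were named where called, at most 4 a list in a comparison, with a fixed set named called or not. Alternatives were quantile normalisation, a filter on dim probe sets, trended and robust variances, array weights, other arrays in the fit, a replicate block, and arrays left out.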

Additional observations from a re-analysis of the deposited data

How the results depend on the processing

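No called difference of a member changed sign under any alternative run. Counts of called members are out of 5. In jejunum at 6 h the count of 1 became 0 with all 30 arrays in the fit and 0 with a replicate block, and 2 with array weights and 2 without the array with a GAPDH gap (Nr1h4 and Nr0b2). In jejunum at 72 h the count of 1 became 0 with all 30 arrays, and 3 with array weights and 3 without the GAPDH-gap array; between 72 and 24 h it became 0 and, without that array, 2. In colon at 6 h the count of 0 became 1 with all 30 arrays. In colon at 24 h the count of 1 became 0 with trended and robust variances, 0 with a replicate block and 0 without arrays of enterocyte signal. In colon at 72 h it was 1 in place of 0 without arrays of acinar or Pgc signal. Between 72 and 24 h in colon it was 2 in place of 1 with all 30 arrays and 2 without the acinar or Pgc arrays, and 0 with array weights and 0 without the enterocyte arrays. Between jejunum and colon at 0 h, 3 in place of 5 were called after the filter on dim probe sets, which removed Slc10a2 and Fabp6, and 3 after quantile normalisation. For the tissue difference in response, the count of 0 became 1 at 6 h with other samples in the fit or array weights (Nr0b2), 1 at 24 h with a replicate block or without the acinar or Pgc arrays (Slc51a), and 1 at 72 h with other samples, array weights or without the acinar or Pgc arrays (Slc51a). Except for the dim filter, the cause was not tested.

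Leaving out each array in turn gave counts from 0 to 1 in jejunum at 1 h and 24 h, 0 at 6 h throughout, and 1 to 2 between 72 and 24 h. In colon the counts ran from 0 to 1 at 6, 24 and 72 h and between 72 and 24 h, and for the tissue difference they ran from 0 to 1 at 6, 24 and 72 h. The remaining array of a group was then assumed to vary like the other groups. The same holds for the fits above that left out arrays by marker signal or GAPDH gap.

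The labels do not say that equal replicate numbers mark the same rats, and same-numbered arrays did not deviate together throughout. Deviations of same-numbered arrays correlated at -0.58 to 0.43 over 30 pairs of times within a tissue and at -0.22 to 0.50 over 15 pairs of tissues at the same time. At 24 h all 3 tissue pairs were above 0.1, at 0.50 for stomach and jejunum, 0.32 for stomach and colon and 0.36 for jejunum and colon; replicate 1 of stomach and jejunum at that time had the GAPDH gap. With a replicate block the adjusted p was 0.0697 for Nr0b2 in jejunum at 6 h, 0.0554 for Slc51a in colon at 24 h and 0.00599 for Slc51a in jejunum at 72 h. An alternative probe set could not be tried, because each measured member had 1.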
